A study of Saccharomyces cerevisiae with 6 samples.

Results

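DNA copy number along the genome of budding yeast was compared between pol2-REL and wild-type cells 30 min after release from G1. The comparison used windows of 1 kb that do not overlap and that the files list for wild type as well as for the mutant at this time. There were 11510 such windows, of 12070 windows without overlap and 24133 overlapping windows in the files, and 67 further windows were listed in wild type but not in pol2-REL. All cells were of strain W303 and carried Pol2 with a 3HA tag and a KAN marker, Pol2-3HA::KAN in wild type and pol2-REL-3HA::KAN in the mutant, so the controls share the tag. Cultures were grown in rich medium (YPD) at 24 °C, arrested in G1 with the mating pheromone alpha factor and released by pronase, which digests the pheromone. Each genotype was 1 strain, and G1, 30 min and 40 min were sequenced as 1 library each, so no difference between the genotypes has a replicate check and no test between them was possible. Errors below are Poisson counting errors of the reads, which do not cover the variation between cultures, and differences between strains, cultures and libraries cannot be told apart from the effect of the allele.

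Pol2 is the catalytic subunit of DNA polymerase epsilon, which synthesizes the leading strand and also takes part in assembling the CMG helicase (Cdc45, Mcm2-7 and GINS) at replication origins. The pol2-REL allele changes an arginine, a glutamate and a leucine in POPS, a small domain of the catalytic core. Origins fire at characteristic times in S phase, and forks then move away from them on both sides. A locus already copied in most cells therefore holds more DNA than a locus still to be copied, and an active origin appears as a peak whose slopes show where forks have reached. Regions near telomeres are in general replicated late.

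The relative copy number of a window is its read count at 30 min over its read count in G1 of the same genotype, and the authors' scaled form has a mean of 1 on each chromosome. A value above 1 marks a locus ahead of the average of its own chromosome, and no difference in total DNA between the genotypes can be seen on this scale. Over the compared windows, the 30 min libraries held 40037343 reads in wild type and 29891110 in the mutant, and the G1 libraries held 30644612 and 19098865. The median window had 3401, 2493, 2487 and 1641 reads in these 4 libraries, with counting errors of 1.71%, 2.00%, 2.01% and 2.47%. The counting error of the log2 ratio of a single window between genotypes was 0.06 in the median, against 0.14 for a ratio of 1.1. Windows just past 1.1 are thus little more than 2 counting errors from 1, and the results below rest on smoothed profiles or on averages of many windows.

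In pol2-REL, relative copy number was higher near the ends of most chromosomes and lower in their interiors and at many peaks. Of the 11510 windows, 1761 (15.3%) were higher in pol2-REL by 1.1-fold or more, and 1756 (15.3%) were lower by as much. This even split depends on the scaling by chromosome, and with a genome-wide mean of 1 in its place 2663 windows were higher and 3521 lower. The median ratio was 0.993, and from the 5th to the 95th percentile it ran from 0.866 to 1.18. In the authors' own smoothed column, 1321 windows (11.5%) were higher and 858 (7.45%) lower by the same fold. After smoothing with a Gaussian kernel of 2 kb SD, 2984 of 11483 windows (26%) were higher and 3461 (30.1%) lower by more than 3 counting errors. The 2 genotypes spread equally on this scale, with an SD across windows of 0.0782 in wild type and 0.0783 in the mutant, while their profiles correlated at r = 0.505 over these windows, each profile carrying the depth pattern of its own G1 library.

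The higher and the lower windows lay in different places. Of the higher windows, 72.0% were within 100 kb of a chromosome end, where 25.2% of all windows lie, and 6.81% were more than 200 kb from an end. Of the lower windows, 2.62% were within 100 kb and 87.6% more than 200 kb from an end, against 50.7% of all windows. The lower windows were also more often near a peak of the profile. Of them, 34.7% were within 5 kb of a peak, compared with 18.9% of the higher windows and 24.2% of all. The peaks were called on profiles of the same libraries that give the ratio, so these shares are not independent of it. Closeness to origins was not tested. The medians of the higher windows were 0.929 in wild type and 1.08 in the mutant, and those of the lower windows 1.07 and 0.932. When windows were put into 5 classes by their level in wild type, the median ratio fell from 1.07 in the lowest class to 1.02, 0.993, 0.967 and 0.930 in the highest. The counting error of wild type enters both the class and the ratio, so some of this order is built into the classes.

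With distance from the nearer chromosome end, the median log2 ratio of pol2-REL to wild type decreased steadily. It was 0.15 within 30 kb of an end, 0.13 from 30 to 60 kb and 0.10 from 60 to 100 kb. It was 0.02 from 100 to 200 kb, -0.06 from 200 to 300 kb and -0.08 beyond 300 kb, and the classes held 714 to 3520 windows. In the terminal 30 kb, 52.7% of windows were higher by 1.1-fold and 3.36% lower, while beyond 300 kb 2.13% were higher and 29.3% lower.

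Because a copy number is a ratio of S phase to G1 reads, this difference can be split into the count ratios of the 2 genotypes. They are the ratio of the 30 min counts and the ratio of the G1 counts, each scaled to a mean of 1 per chromosome. For a single window the split holds up to a constant for each chromosome. The change with distance lay in the G1 counts. The median log2 ratio of the 30 min counts was -0.0017 within 30 kb of an end, 0.01 from 30 to 60 kb and -0.0073 beyond 300 kb, whereas that of the G1 counts rose from -0.12 to 0.07. In reads per window relative to the chromosome mean, wild-type G1 went from 1.21 in the terminal 30 kb to 0.926 beyond 300 kb, and pol2-REL G1 from 1.14 to 0.978. Over the same distance the 30 min library of wild type went from 1.19 to 0.944 and that of pol2-REL from 1.24 to 0.942. Wild-type G1 thus had the steeper depth gradient of the G1 libraries, and the 30 min libraries were close to each other. Which G1 gradient, if either, belongs to DNA content was not tested.

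**Figure D1:**
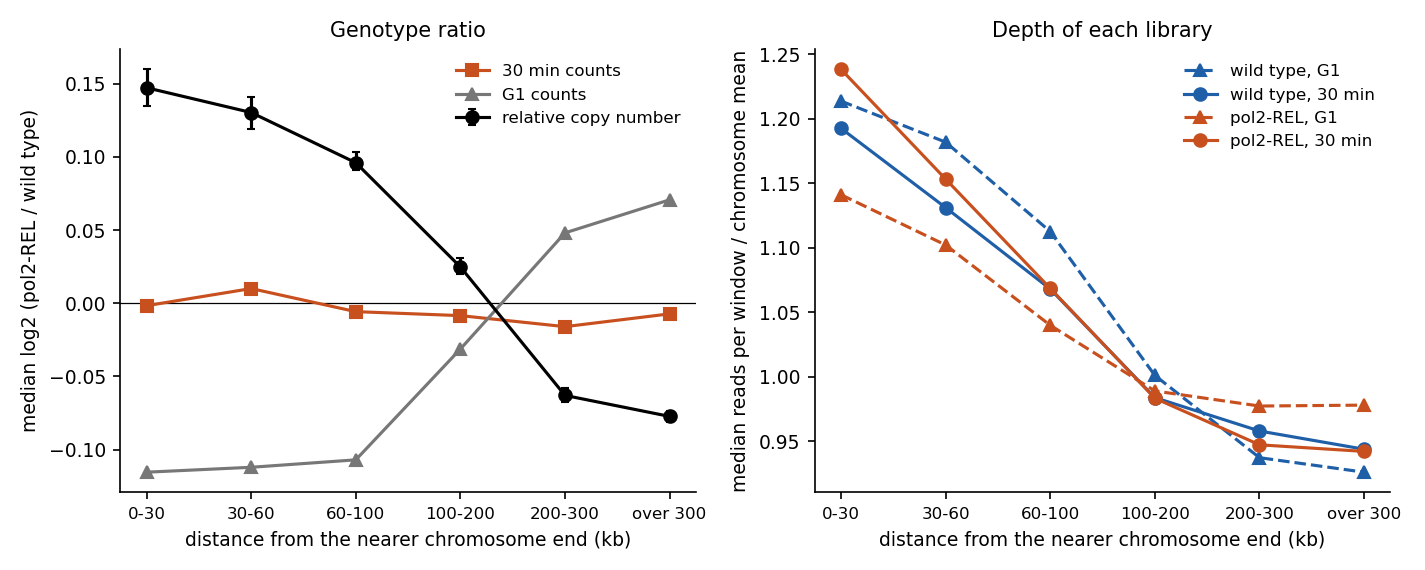
Left: median log2 ratio of pol2-REL to wild type (y) by distance from the nearer chromosome end in kb (x), for relative copy number (black, with 95% rank intervals over windows), the 30 min counts (orange) and the G1 counts (grey). Right: median reads per window over the chromosome mean in each of the 4 libraries, with G1 dashed. Copy number goes from 0.15 to -0.08, the 30 min counts stay within 0.02 of 0 and the G1 counts mirror copy number.

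Across the 11483 smoothed windows, the log2 copy number ratio had an SD of 0.11, the 30 min counts 0.07 and the G1 counts 0.09. A running median with 100 windows on each side separates the broad from the local part of each. In the broad part the SD was 0.03 for the 30 min counts and 0.07 for the G1 counts, and in the local part it was 0.05 and 0.03. The long-range map therefore varied mainly with G1 and the local map mainly with the S phase libraries. Without any G1 library, that is from the 30 min counts alone, 566 of 11508 windows (4.92%) were higher and 440 (3.82%) lower by 1.1-fold, and the G1 counts differed by this fold at 787 (6.84%) and 1393 (12.1%) windows.

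By chromosome, windows within 60 kb of an end were higher relative to the rest in pol2-REL on 13 of 16 chromosomes. The exceptions were I, III and VI, the shortest. The 30 min counts alone were higher towards the ends on 8 chromosomes, and the G1 counts lower on 14. The share of higher windows ran from 6.87% on chromosome VI to 20.4% on XV, and that of lower windows from 6.49% on VI to 24.1% on XII, the chromosome that carries the ribosomal DNA. The single window with the strongest gain was within 60 kb of an end on 14 chromosomes, and the window with the strongest loss was more than 200 kb from an end on 13. The profile varied more in pol2-REL than in wild type on 9 chromosomes and less on 7, from 0.708 times the wild-type SD on XV to 1.29 times on XIV.

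The 32 chromosome ends were then taken singly, as means over their terminal 30 kb. Relative copy number was higher in pol2-REL at 27 of them, with ratios from 0.937 to 1.40 and a median of 1.113. The 30 min counts divided these ends into a few with a large excess and a majority with little or none. They were above 1 at 15 ends and below 1 at 17, with a median of 0.993. At 26 ends they lay between 0.940 and 1.09, and at the other 6 they were 1.1 or more. The G1 counts were below 1 at 28 ends with a median of 0.922, so at most ends the higher copy number lay in the G1 counts.

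**Figure D2:**
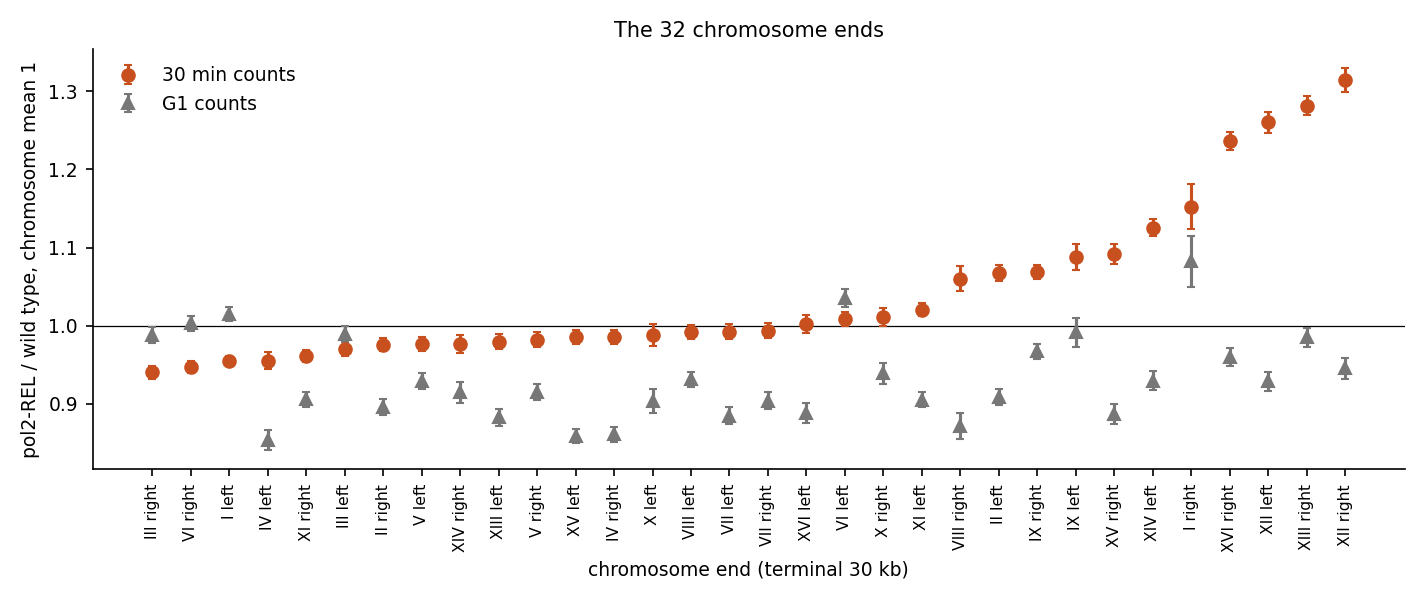
Ratio of pol2-REL to wild type (y) in the 30 min counts (orange circles) and in the G1 counts (grey triangles) over the terminal 30 kb of each of the 32 chromosome ends (x), ordered by the 30 min counts, bars showing 1.96 counting errors. Most circles lie near 1 and 4 lie above 1.2, while 28 triangles lie below 1.

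The right end of chromosome XII had the highest ratio of 30 min counts, 1.31. Relative copy number there was 0.901 for wild type against 1.26 for pol2-REL at 30 min, and 1.27 against 1.26 at 40 min. Wild type was thus behind the average of the chromosome at 30 min and level with the mutant 10 min later. At the left end of XII the values were 0.901 and 1.23 at 30 min and 1.15 and 1.21 at 40 min, with a 30 min count ratio of 1.26. At the right end of XIII they were 0.989 and 1.29 at 30 min and 1.56 and 1.51 at 40 min, with a ratio of 1.28. The right end of XVI had 0.944 and 1.22, then 1.23 and 1.28, and a ratio of 1.24. At each of these 4 ends wild type at 30 min was the lowest of the 4 S phase libraries. At the right ends of XII, XIII and XVI, pol2-REL at 30 min lay between it and the 40 min libraries, though close to the latter on XII and XVI. At the left end of XII, pol2-REL at 30 min was the highest of the 4.

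The depth of the libraries shows the same without any ratio to G1. Reads per window over the chromosome mean at the right end of XIII were 1.14, 1.13 and 1.78 in the G1, 30 min and 40 min libraries of wild type, and 1.12, 1.45 and 1.69 in those of pol2-REL. The G1 libraries were nearly equal at this end, and the pol2-REL library was the higher at 30 min and the lower at 40 min. At the right end of XII the depth was 1.17, 1.06 and 1.50 in wild type and 1.102, 1.39 and 1.40 in the mutant. Here pol2-REL was as high at 30 min as at 40 min. The remaining ends past 1.1 were the left end of XIV, with 1.054 for wild type against 1.295 for pol2-REL at 30 min and a count ratio of 1.12, and the right end of I, where only 4 windows were listed, with 0.932 and 0.997 and a count ratio of 1.15.

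The excess was graded from the end inwards. At the right end of XIII, the ratio of the 30 min counts was 1.38 in the last 10 kb, 1.32 from 10 to 20 kb, 1.22 from 20 to 30 kb, 1.17 from 30 to 40 kb and 1.095 from 40 to 50 kb. From 70 to 80 kb it was 1.03. On the right of XVI it went from 1.32 in the last 10 kb to 1.104 at 40 to 50 kb and 1.053 at 60 to 70 kb. The right of XII went from 1.33 at 10 to 20 kb to 1.047 at 50 to 60 kb, and its left end from 1.295 to 1.06 over the same distances. In both genotypes relative copy number at 40 min also rose towards these 4 ends, and in wild type at 30 min it did not or rose little.

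**Figure D3:**
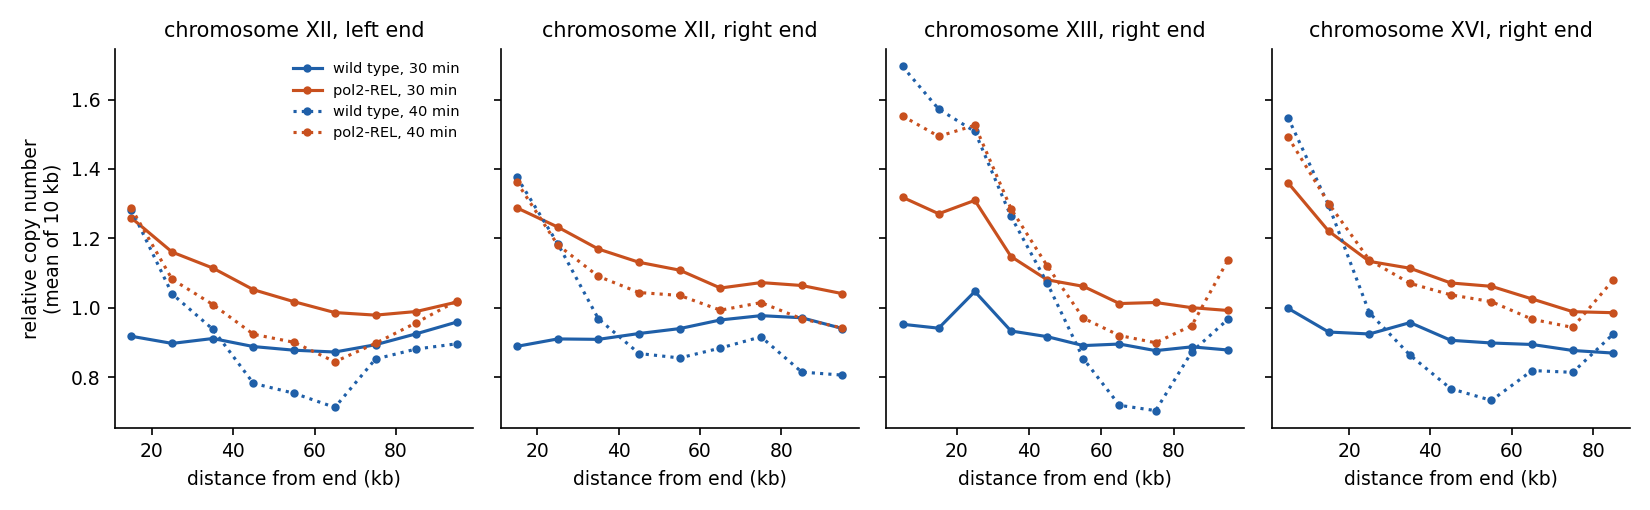
Relative copy number as means of 10 kb (y) against distance from the chromosome end in kb (x) for the 4 ends with the largest ratio of 30 min counts, in wild type (blue) and pol2-REL (orange) at 30 min (solid) and 40 min (dotted). At each end pol2-REL at 30 min and both genotypes at 40 min rise towards the end, and wild type at 30 min stays near or below 1.

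The terminal 60 kb of these 4 ends, which were chosen after their values were seen, held 207 windows, and 148 of them (71.5%) were higher by 1.1-fold in the 30 min counts. They contributed 26.1% of the 566 such windows in the genome. The other 11301 windows held 418 (3.70%).

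Runs of at least 5 consecutive windows whose smoothed copy number differed by 0.05 or more in the same direction were taken as regions. There were 101 regions higher in pol2-REL, with a median length of 14 kb and 2665 windows in all, and 183 lower regions with a median of 11 kb and 3081 windows. Of the higher regions, 56 had their strongest window within 100 kb of an end, compared with 9 of the lower regions. Of the lower regions, 92 had their strongest window within 5 kb of a peak, compared with 22 of the higher. From the 30 min counts alone there were 70 higher and 97 lower regions. The strongest window was within 5 kb of a peak in 13 of these higher and 60 of these lower regions, and 24.2% of all windows lie that close. The peaks were called on the same 30 min profiles, so none of these counts is independent of the regions.

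Among the 10 higher regions with the largest gain, 9 were within 100 kb of an end. The largest, chrXII:981001-1066000 (SacCer2), reached 0.893 in wild type and 1.31 in the mutant in its strongest window, a difference of 0.417 with a counting error of 0.0239. That window, chrXII:1065001-1066000, held 2068 reads in wild-type G1 and 2752 at 30 min, and in pol2-REL 1351 in G1 and 2687 at 30 min. The pol2-REL library there had nearly as many reads as the deeper wild-type library. The region chrXIII:800001-917000, the longest higher region with 117 kb, reached 0.931 and 1.33, and chrXVI:857001-944000 reached 1.02 and 1.42. The left end of XII (chrXII:13001-90000), the right end of XV (chrXV:976001-1080000) and the left end of XIV (chrXIV:15001-97000) followed with gains of 0.347, 0.254 and 0.250. The right ends of IV (chrIV:1410001-1526000) and IX (chrIX:366001-439885) and the left end of II (chrII:6001-30000) gained 0.221, 0.182 and 0.213. Averaged over the region, the 30 min counts did not show the gain on IV, with a ratio of 0.982, and did show it on IX, with 1.105. On XV, XIV and II it was 1.051, 1.045 and 1.06. The mean ratio of G1 counts over the 10 regions ran from 0.877 on IV to 0.981 on IX, so G1 was on the side of the gain in each of them.

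The exception away from the ends was chrXII:434001-451000, which borders the ribosomal DNA on the side of lower coordinates. Its strongest window, chrXII:450001-451000, had 1.18 in wild type and 1.50 in the mutant, and its 30 min counts stood at 1.18. It held 1364 and 2365 reads in G1 and at 30 min in wild type and 898 and 2160 in pol2-REL. The ribosomal DNA is a long array of tandem repeats, and 2 windows in it with more than 5 times the median count were left out of the smoothed profiles. In the 30 min counts a region on the other side, chrXII:489001-504000, was also higher, with a mean ratio of 1.13.

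None of the 10 lower regions with the largest loss was within 100 kb of an end, and they lay on chromosomes II, VII, IX, XII and XVI. The largest loss was at chrXVI:624001-656000, whose strongest window, chrXVI:636001-637000, fell from 1.17 in wild type to 0.979 in pol2-REL. It held 2338 reads in wild-type G1 and 3745 at 30 min, and 1538 and 2403 in pol2-REL. At 40 min the mean of the region was 1.03 in wild type and 1.00 in the mutant, so the genotypes were closer there at the later time. The second, chrVII:709001-715000, went from 1.198 to 1.01. Chromosome XII held 4 of the 10, chrXII:404001-419000 from 1.31 to 1.13, chrXII:507001-525000 from 1.45 to 1.28, chrXII:657001-668000 from 1.14 to 0.968 and chrXII:265001-391000 from 1.25 to 1.08 in the strongest windows. The last spans 126 windows, with means of 1.02 and 0.898, and chrXII:265001-372000 was among the lower regions of the 30 min counts as well, with a mean ratio of 0.922. Chromosome XII thus had windows on both sides in the 30 min counts, with 96 of its 990 windows higher and 97 lower by 1.1-fold.

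The 30 min counts were lower in all 10 regions, and the G1 counts were higher in all 10. The mean ratio of 30 min counts was 0.960 in chrIX:200001-225000, 0.967 in chrII:479001-502000, 0.959 in chrXVI:476001-517000 and 0.941 in chrXVI:561001-572000. Their strongest windows fell from 1.13 to 0.950, from 1.19 to 1.01, from 1.17 to 0.992 and from 1.15 to 0.982. In chrVII:709001-715000 the ratio was 0.966, and in the first 3 regions of chromosome XII named above it was 0.929, 0.966 and 0.936. Over the 10 regions the mean ratio of G1 counts ran from 1.04 to 1.088. As a mean over the region, it was farther from 1 than that of the 30 min counts in all but chrXII:404001-419000 and chrXII:265001-391000. In the strongest windows, whose losses are given above, the 30 min counts were the larger part in 5 of the 10 regions.

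Maxima of the smoothed profile were called peaks with a prominence of at least 0.03 and at least 10 kb apart. Wild type had 317 peaks and pol2-REL 373, of which 296 and 343 were 20 kb or more from an end. The order of the 2 counts depended on the calling. At a prominence of 0.06 wild type had 205 and pol2-REL 192, and in the deposited smoothed ratio they had 264 and 255. With a kernel of 1 kb they had 537 and 636, and with the sum of both G1 libraries 293 and 308. The mean of both profiles had 245 peaks 20 kb or more from an end, which served as shared positions. A peak was not matched to a known origin, because no annotation in the coordinates of the files was used here. Height was the mean of the listed windows in the central 3 kb over that of the flanks at 15 to 20 kb, minus 1.

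At the shared positions, most peaks were lower in pol2-REL. The height was lower at 167 of the 245 shared peaks and higher at 78, and the median height was 0.126 in wild type and 0.0720 in the mutant. It was lower by more than 3 counting errors at 48 peaks (19.6%) and higher at 7 (2.86%). The loss was present in the S phase reads, since the ratio of 30 min counts was smaller at the centre than at the flanks at 181 peaks. By mean height, 63 of the 82 highest peaks and 64 of the 81 middle peaks were lower in pol2-REL, and 40 of the 82 lowest, which is close to an even split. These counts depended on the 30 min profile in which the positions were called. At the peaks of pol2-REL alone, 131 were lower in the mutant and 212 higher. At the peaks of wild type alone, 251 were lower and 45 higher.

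**Figure D4:**
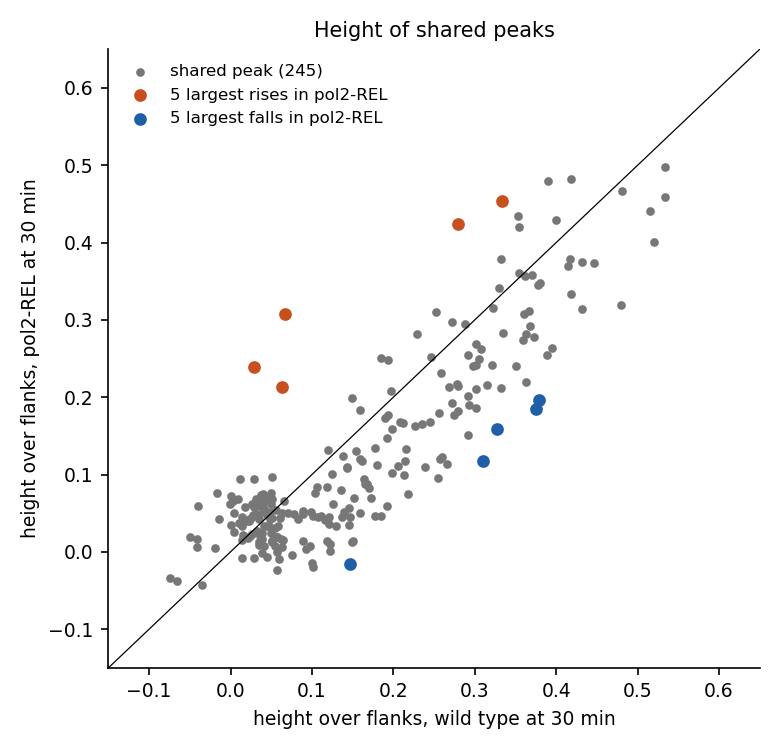
Height over the flanks at 30 min in wild type (x) and pol2-REL (y), both without unit, for the 245 shared peaks (grey), with the 5 largest rises (orange) and 5 largest falls (blue), on the line of equal height where the genotypes match. Of the points, 167 lie below the line and 78 above it.

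The 5 largest falls were at peaks of chromosomes V, XII, XIV and XV. At chrV:58001-59000 the height went from 0.310 in the control to 0.118 in the mutant, with a counting error of 0.0294 on the difference. Its 30 min counts fell to 0.880 at the centre relative to the flanks, while its G1 counts were at 1.03. The peaks at chrXII:512001-513000 (0.375 to 0.184), chrXIV:609001-610000 (0.379 to 0.196) and chrXV:228001-229000 (0.328 to 0.159) lost about as much. Their 30 min counts at the centre over the flanks were 0.887, 0.906 and 0.882, and their G1 counts 1.03, 1.04 and 1.01. At chrV:406001-407000 the height was 0.147 in wild type and -0.015 in the mutant, so no peak over the flanks was left, with 30 min counts at 0.879 and G1 counts at 1.02. At 40 min these 5 peaks had heights of 0.195, 0.301, 0.305, 0.326 and 0.328 in wild type and 0.191, 0.386, 0.277, 0.377 and 0.180 in pol2-REL, in the order V 58 kb, XII, XIV, XV and V 406 kb. On XII and XV the mutant peak was the higher of the pair at that time.

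The 5 largest rises were of 2 kinds. The peaks at chrIII:74001-75000 (0.279 to 0.424) and chrVI:199001-200000 (0.334 to 0.453) were already high in wild type, and at 40 min they were 0.178 and 0.440 on III and 0.173 and 0.383 on VI. The other 3 were low in wild type at 30 min. At chrXII:450001-451000, beside the ribosomal DNA, the height was 0.0674 in wild type and 0.307 in the mutant. At chrIX:22001-23000 it was 0.029 and 0.239, and at chrVIII:216001-217000 it was 0.0626 and 0.213. At each of these 3 peaks part of the central 3 kb was not listed, so the centre rests on fewer windows. On XII no window from 2 to 5 kb to the right was listed. The counting errors of the rises on XII, IX and VIII were 0.0512, 0.0483 and 0.0384, against a median of 0.0294 over the shared peaks. At these 3 peaks wild type reached 0.307, 0.234 and 0.208 by 40 min, close to the 30 min values of the mutant. The ratio of 30 min counts at the centre over the flanks was 1.13, 1.17 and 1.09 for XII, IX and VIII, and 1.04 on both III and VI. The same ratio of G1 counts was 0.923, 0.981 and 0.952 for XII, IX and VIII, 0.932 on III and 0.960 on VI. On III the G1 counts thus made up more of the rise than the 30 min counts.

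The average peak was also narrower in pol2-REL, with lower shoulders. Averaged over the 245 shared positions, the height was 0.154 in wild type (95% counting interval 0.151 to 0.156) and 0.123 in the mutant (0.120 to 0.126), a ratio of 0.80. The width at the level midway between centre and flanks was 6.50 kb (6.23 to 6.77) in wild type and 5.15 kb (4.95 to 5.34) in the mutant. The shoulder, the mean from 5 to 10 kb as a share of the height, was 0.165 in wild type and 0.0902 in the mutant. In the mutant the copy number thus fell off over a shorter distance from the centre, relative to its own height.

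At the 82 highest peaks, the single central window was equal and the slopes were lower in pol2-REL. Copy number was 1.24 for both genotypes in that window and 1.22 against 1.19 over the central 3 kb, and the height went from 0.325 to 0.274. At 4 kb to the left it was 1.08 in wild type and 1.04 in the mutant, and at 4 kb to the right 1.08 and 1.03. At 10 kb the profiles met again, at 0.957 and 0.959 on the left. Their widths were 8.65 kb in wild type and 6.19 kb in the mutant. The ratio of 30 min counts at these peaks was 1.00 in the central window, 0.987 over the central 3 kb, 0.977 on average from 2 to 5 kb and 1.03 from 15 to 20 kb, whereas the G1 counts were at 1.00, 1.01, 1.02 and 1.01. At the 81 middle peaks, the central 3 kb were lower as well, with a count ratio of 0.961, and the height went from 0.125 to 0.0778.

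The shape depended on the profile in which the positions were called. With the 265 positions of wild type at 40 min, which no mutant library and no 30 min library entered, the height was 0.139 in wild type and 0.0920 in the mutant, a ratio of 0.663 (0.640 to 0.686). The width was 7.16 kb in wild type and 6.36 kb in the mutant, a ratio of 0.888 (0.836 to 0.940). With the 272 positions of pol2-REL at 40 min, the height ratio was 0.842 and the width ratio 0.655. These profiles share their G1 libraries with the 30 min profiles. With the peaks of wild type at 30 min alone, the width ratio was 1.03, so that the narrower average peak was not found there, and the height ratio was 0.621. With the peaks of pol2-REL at 30 min alone the width ratio was 0.617 and the height ratio 1.19, above 1. The lower height thus reversed in 1 of these choices, and the narrower width was absent in 1.

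The dip of the 30 min counts around peaks was present with the positions of either genotype at 40 min. With those of wild type, the ratio was 0.968 in the central 3 kb, 0.977 from 2 to 5 kb, 0.994 from 6 to 10 kb and 1.01 from 15 to 20 kb. With those of pol2-REL it was 0.975, 0.979, 0.996 and 1.01. The counting errors of these averages were at most 0.000885. The G1 counts at the wild-type positions were 1.01, 1.00, 1.00 and 1.00. At the pol2-REL positions they were 0.989, 1.005, 1.007 and 1.002. There the G1 counts were lower at the centre, which raises the relative copy number of the mutant at the centre. The windows beside the peaks were therefore lower in the mutant in S phase reads to a distance of about 5 kb on each side.

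**Figure D5:**
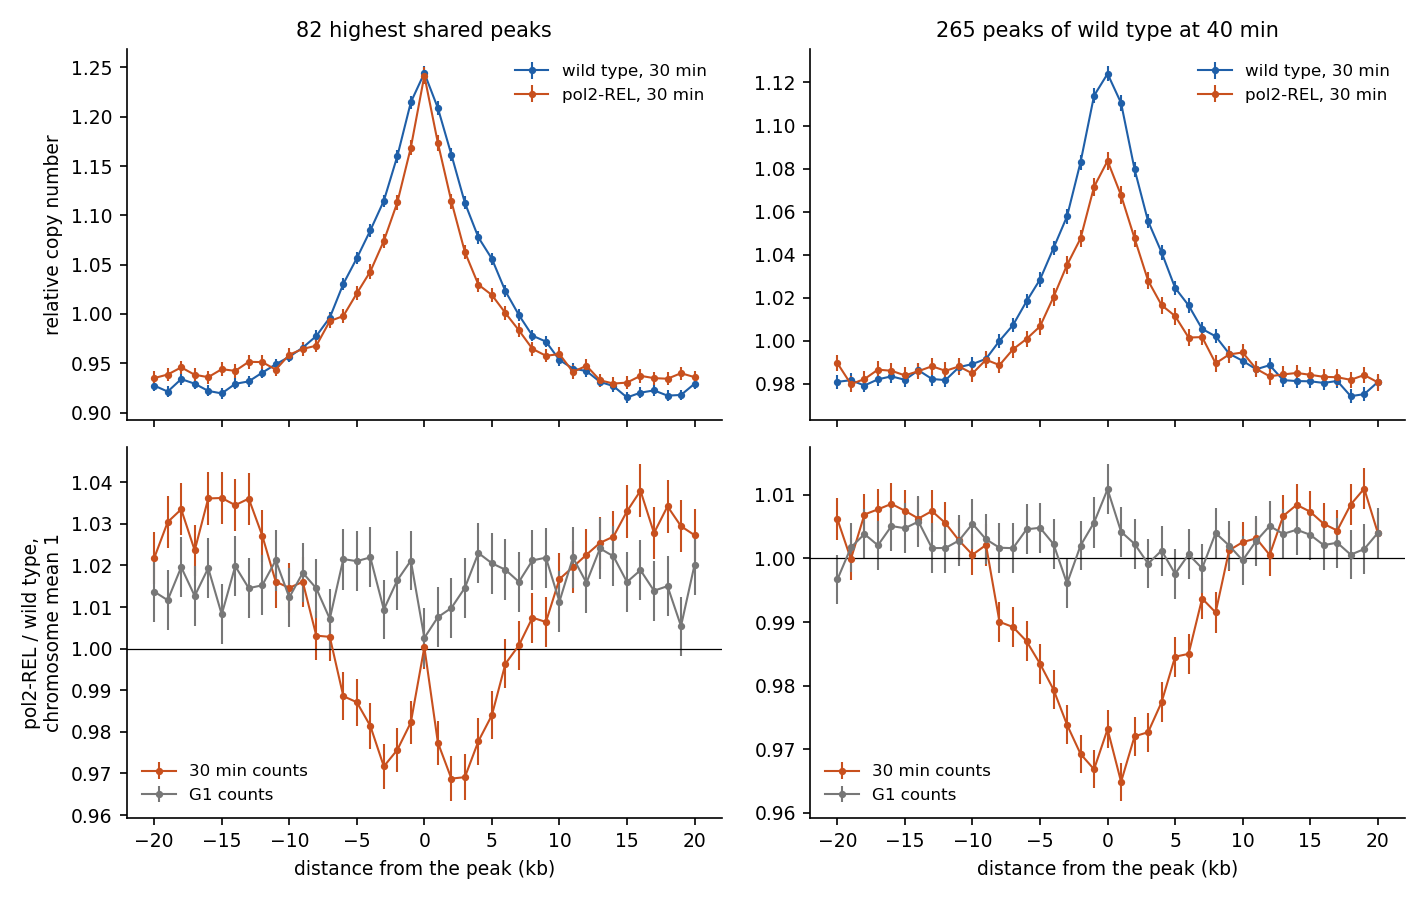
Average profiles within 20 kb of a peak (x, kb), at the 82 highest shared peaks (left) and at the 265 peaks of wild type at 40 min (right), bars showing 1.96 counting errors. Top: relative copy number at 30 min in wild type (blue) and pol2-REL (orange), equal at 1.24 in the centre on the left and lower in pol2-REL on the right. Bottom: ratio of pol2-REL to wild type in the 30 min counts (orange), which dips to about 0.97 beside the peak, and in the G1 counts (grey), which do not dip with it.

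The left and right shoulders of single peaks were compared for a difference in the reach of the leftward and rightward sides. Over 225 shared peaks with both slopes listed, the SD of right minus left, after removing the counting variance, was 0.0224 in wild type and 0.0201 in the mutant. The order depended on the positions, since the SD was 0.0418 and 0.0467 at the 242 positions of wild type at 40 min and 0.0376 and 0.0256 at the 249 of pol2-REL at 40 min. No direction is therefore given for the unevenness of the mutant peaks. The higher slope was on the same side in both genotypes at 101 of the 225 shared peaks, at 164 of the 242 wild-type positions and at 138 of the 249 pol2-REL positions.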

How the data were processed

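The authors mapped paired-end reads to S288c (SacCer2) and summed them into 1 kb bins, starting every 500 bp, without repetitive sequences; the deposited counts are not normalized. BWA 0.7.8, Picard 1.110 and cutadapt are named in the submitters' processing notes. The counting of duplicates and read pairs: not given in the sources used here. A ratio of each S phase library to G1 of its own genotype, with a scaled and a smoothed version, was deposited by the authors too. The methods describe a scaling that includes DNA content, but the scaled ratio has a mean of 1 on each chromosome. The unscaled ratio equals the ratio of the counts to within 0.0005.

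From these files, windows listed at 30 min in both genotypes were compared, with a lowest count of 605. The members, lists and rules were chosen with earlier results of these data known. Named loci were the 10 regions of largest gain and the 10 of largest loss, the 5 shared peaks with the largest rise and the 5 with the largest fall, and summaries of the strongest windows per chromosome. Profiles were smoothed with a Gaussian kernel (SD 2 kb), without 2 rDNA windows, which was decided once the data had been seen. Counting errors assumed independent reads and were computed with the delta method; intervals are 1.96 errors (95%). With 1 library per condition no test was run. The code was tested on simulated data. Alternatives changed the value, fold, G1 reference, scaling, smoothing, trend, ends, window set, filter, prominence, flanks and peak positions. The gene annotation at hand is of another build, so no gene or origin was named, and no sequence is shown. Computations used numpy 2.4.6, SciPy 1.17.1, pandas 2.3.3 and matplotlib 3.10.9 under Python 3.11.15.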

Additional observations from a re-analysis of the deposited data

Results flagged for a closer look

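At 4 of the 32 chromosome ends, the S phase reads of pol2-REL over wild type in the terminal 30 kb, scaled to a mean of 1 per chromosome, were 1.1 or more at 30 min and below 1 by more than 3 counting errors at 40 min. With 1 library at each time and genotype, this difference between the times was not tested. Going from 30 to 40 min, the ratio changed from 1.31 to 0.934 on the right of chromosome XII, from 1.26 to 0.969 on the left of XII, and from 1.28 to 0.951 on the right of XIII. On the right of chromosome I, where only 4 windows were listed, it changed from 1.15 to 0.922. At 2 further ends the ratio also went from above to below 1 but missed a limit, from 1.02 to 0.930 on the left of XI and from 1.24 to 0.993 on the right of XVI. No G1 library enters these ratios and no library is shared between the times. Across all 11483 smoothed windows, the log2 ratios at the 2 times correlated at r = -0.0919, neighbouring windows being dependent.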

How the results depend on the processing

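No paired analysis was possible because each condition had 1 library. The G1 reference moved the long-range results most. Lower windows numbered 1756 as reported, 402 with the sum of both G1 libraries for both genotypes, 404 with pol2-REL G1 for both, 401 with wild-type G1 for both and 440 without G1, and higher windows 1761, 603, 604, 600 and 566. In the same order, the median log2 ratio within 30 kb of an end went from 0.147 to 0.00075, 0.00124, 0.000361 and -0.00169, that from 60 to 100 kb from 0.096 to -0.00286, -0.00279, -0.00282 and -0.00576, that from 100 to 200 kb from 0.0248 to -0.00563, -0.0054, -0.0059 and -0.00848, and that beyond 300 kb from -0.0773 to -0.0042, -0.00455, -0.00398 and -0.00729. Beyond 300 kb it was -0.0829 in the deposited smoothed ratio and -0.0724 with a median of 1 per chromosome. Lower windows numbered 858 in the deposited smoothed ratio, 941 after Gaussian smoothing, 3639 at a fold midway between 1 and 1.1, 182 at 1.2, 3521 with a genome-wide mean of 1 and 821 with the running median divided out, and higher windows 3304 at the smaller fold, 381 at 1.2, 2663 with the genome-wide mean and 871 with the running median. The SD ratio of 1.00 was 0.928 with the sum of G1, 0.933 with wild-type G1, 0.802 with the genome-wide mean, 0.921 without 30 kb at each end and 0.907 with the running median. Higher regions fell from 101 to 66 with the sum of G1 and 54 at a difference of 0.1, and lower regions from 183 to 110, 97 without G1, 89 with the running median and 70 at 0.1.

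Peak shape depended on the positions. Height, width and shoulder were always measured on the scaled ratio without smoothing. Where the deposited smoothed ratio or a kernel of 1 kb is named in this paragraph, it served only to call the positions, 194 and 438 of them. The height ratio of 0.80 was 0.762 in the deposited smoothed ratio, 0.901 with a kernel of 1 kb, 0.732 at positions of both 40 min profiles, 0.621 at those of wild type at 30 min, 1.19 at those of pol2-REL at 30 min and 0.776 at peaks with no other within 30 kb. The width ratio of 0.792 was 0.735 with windows shifted by 500 bp, 0.713 with 1 kb, 0.737 at 40 min positions, 1.03 at wild-type positions and 0.617 at pol2-REL positions. The shoulder ratio of 0.548 was 0.650 with the sum of G1, 0.353 with pol2-REL G1, -0.170 with 1 kb, where the pol2-REL shoulder was -0.0103, 0.639 at a prominence of 0.06, 0.667 at 40 min positions, 0.813 at wild-type positions, 0.0612 at pol2-REL positions and 0.666 at isolated peaks. Positions of 1 genotype at 40 min, added after seeing the data, gave for wild type and pol2-REL height ratios of 0.663 and 0.842, width ratios of 0.888 and 0.655 and shoulder ratios of 0.764 and 0.429. Peaks lower in pol2-REL numbered 167, 251 at wild-type positions, 131 at pol2-REL positions and 90 among isolated peaks. Higher peaks numbered 78, 46 in the deposited smoothed ratio, 32 at a prominence of 0.06, 45 at wild-type positions, 212 at pol2-REL positions, nearly as many with 1 kb, 30 among isolated peaks and 48 at wild-type 40 min positions. Fewer peaks are counted among isolated peaks; for the other settings the cause was not tested. Of the values under alternatives, 147 moved past the limits set for them, 12 reversed and 140 did neither.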
